A study of Mus musculus with 6 samples.

Results

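Complexes II to V of the mitochondrial inner membrane and cytochrome c make up the respiratory chain other than complex I, together with the ATP synthase. A list of 40 nuclear genes that encode their subunits was examined, chosen by gene name, out of 56953 genes in the deposited tables. All 40 were found in the tables, 4 for complex II, 9 for complex III, 1 for cytochrome c, 12 for complex IV (cytochrome c oxidase) and 14 for complex V (ATP synthase), and 39 of them passed a filter on low counts. Natural killer (NK) cells, innate lymphocytes able to lyse tumour or virus-infected cells, came from the spleen of wild-type C57BL/6 mice. The hypoxia group was kept for 7 days at 1% oxygen and the normoxia group for 7 days at 20% oxygen. Both groups received recombinant human interleukin-2 at 1700 U/ml and 5% CO2, so neither stands for resting cells. Each group held 3 libraries called biological replicates in the labels, which do not say whether these were separate mice, pools or cultures, so that the p-values measure only the spread between these libraries.

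Complex II (succinate dehydrogenase) passes electrons from succinate to ubiquinone, complex III from ubiquinone to cytochrome c, and complex IV from cytochrome c to oxygen, and complexes III and IV pump protons whose return drives ATP synthase. Complex II is encoded wholly in the nucleus, whereas complexes III, IV and V also hold subunits encoded by the mitochondrial genome. Activated lymphocytes use oxidative phosphorylation beside glycolysis, and low oxygen is known in many cell types to act on it through the transcription factor HIF.

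Library totals lay between 55104810 and 55794698 estimated counts, so that 1 count was worth about 0.018 CPM (counts in 1e+06). Levels below are CPM scaled with TMM, a factor that corrects for the make-up of each library, and log2 fold changes set hypoxia over normoxia. The replicate 1 libraries of both groups stood apart on the second principal component of all genes (23.2 in hypoxia and 35.0 in normoxia, against -20.2 to -11.4 for the other 4 libraries). Same-numbered libraries of both groups deviated together, so fits with the replicate number as a block (the replicate block) are given beside those without it. All 8 NK cell markers listed were measured, with Gzmb between 10793 and 13391 CPM under hypoxia and between 11292 and 12687 CPM under normoxia. Of these 8, Eomes was called lower (log2 fold change -0.63, edgeR adjusted p = 0.0028) and 0 were called higher, the hypoxia libraries lay wholly below for Eomes, Ncr1, Klrk1 and Prf1, and under the block these 4 were called lower and Tbx21 and Nkg7 higher. Of all tested genes, 9.72% were called lower and 11.2% higher without the block, 20.0% and 19.2% with it, and 18.7% lay wholly below. Summed markers of T cells ranged over 151 to 192 CPM under hypoxia and 95.8 to 112 CPM under normoxia (3 of 7 tested called higher). Most came from Cd3g (103 ± 10.9 and 56.2 ± 6.80 CPM) and Cd3d (42.2 ± 5.06 and 20.1 ± 1.08 CPM), called higher with Cd4. Cd3e (11.3 ± 2.67 and 11.7 ± 1.19 CPM, SD, n = 3 each), Cd8a, Cd8b1 and Cd5 were not called without the block. Summed markers of macrophages and dendritic cells ranged over 362 to 436 and 181 to 214 CPM (5 of 7 tested, 3 called higher and 1 lower), of which Itgax, also carried by NK cells, made up most. The 3 called higher were Itgax, Cd68 and Lyz2, and the lower one was Cd14. Cd68 had 61.9 ± 16.5 CPM in hypoxia and 16.4 ± 6.15 CPM in normoxia, without overlap (SD, n = 3 each, log2 fold change 1.91, edgeR adjusted p = 0.00075). Summed neutrophil markers did not exceed 1.91 CPM in hypoxia and 0.305 CPM in normoxia, and erythroid markers 0.156 and 0.109 CPM. Markers of stroma and endothelium summed to 192 to 210 CPM in hypoxia and 234 to 281 CPM in normoxia, nearly all from Pecam1. Low-level markers called higher in hypoxia included Cd79b of B cells, with 0.988 ± 0.0445 CPM in hypoxia and 0.271 ± 0.0772 CPM in normoxia. Cd4 of T cells had 0.700 ± 0.176 and 0.217 ± 0.107 CPM, and Lyz2 of macrophages 0.310 ± 0.102 CPM in hypoxia and 0 in normoxia. The neutrophil genes S100a8 and S100a9 were also called higher, with means of 0.420 and 0.431 CPM in hypoxia and 0.0063 CPM each in normoxia (SD, n = 3 each). Defining markers at or near 0 included Ms4a1, Adgre1, Flt3, Retnlg and Col3a1. The part of other cells in the values below was not tested, and in bulk samples fewer cells of a type and less RNA per cell cannot be told apart.

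The nuclear subunit mRNAs of complexes II to V differed little between oxygen levels. Their log2 fold changes ran from -0.31 (Uqcrq) to 0.10 (Uqcrh). With a threshold of 0.05 on the p adjusted by Benjamini-Hochberg over all 15591 genes in the quasi-likelihood test of edgeR, 1 of 39 members was lower in hypoxia and 0 were higher, or 2.56% called, where 20.9% of all tested genes were called (9.72% lower and 11.2% higher). At an unadjusted p under 0.05, 3 of 39 members were lower and 0 higher, against 2548 lower and 2696 higher of all 15591 tested genes. The 95% interval of the fold change lay within 1.5-fold in both directions for 38 of 39 members, the exception being the low-abundance gene Atp5g2, whose interval ran from -0.81 to 0.23. The standard error of a member had a median of 0.09.

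**Figure D1:**
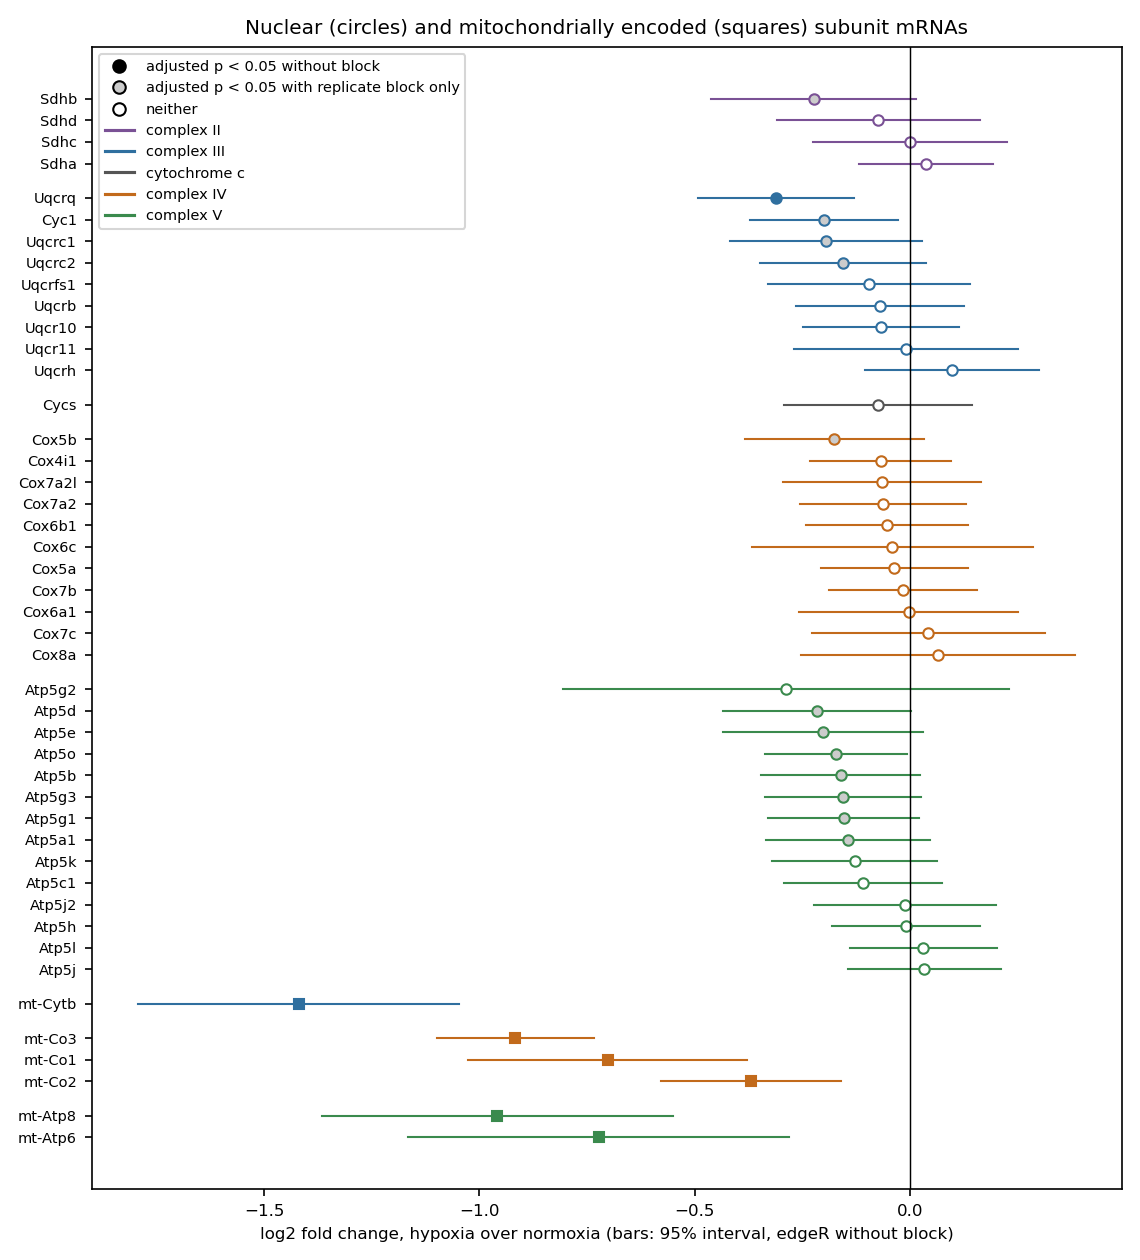
Log2 fold change (hypoxia over normoxia, x axis) of the 39 tested nuclear subunit genes (circles) and of 6 mitochondrially encoded subunits of the same complexes (squares), with 95% intervals from edgeR without the block, coloured by complex. Nuclear genes lie between -0.31 and 0.10, whereas the mitochondrially encoded genes lie between -1.42 and -0.37; filled symbols passed without the block and grey ones only with the replicate block.

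Small differences in the same direction were common. The estimate was below 0 for 32 of 39 members, against 50.8% of all tested genes, and the median was -0.07 over the members and -0.0052 over all genes. The median of the members was -0.04 without hypoxia replicate 2, -0.13 without hypoxia replicate 3, -0.12 without normoxia replicate 2 and -0.03 without both replicate 1 libraries, where 25 of 39 estimates were below 0. In 19 of 39 members (48.7%) all 3 same-numbered pairs were lower in hypoxia and in 0 all 3 were higher, against 32.4% and 31.0% of all tested genes. The hypoxia libraries lay wholly below the normoxia libraries in 4 members (10.3%), Uqcrq, Cyc1, Atp5g3 and Atp5o, and wholly above in 0, against 18.7% and 19.6% of all genes (38.3% either way). With the replicate block 13 members were called lower and 0 higher (adjusted p from edgeR between 0.00045 and 0.044), or 33.3% lower, where 39.2% of all genes were called (20.0% lower and 19.2% higher). The 13 had blocked log2 fold changes between -0.31 and -0.14, which are decreases of a size that the fit without the block did not call, apart from Uqcrq. The blocked count varied with the replicates used. It was 9 lower and 2 higher without replicate 1, 2 lower (Uqcrc1 and Uqcrq) without replicate 2 and 15 lower without replicate 3. Of all tested genes, 40.1% were called in either direction without replicate 1, 22.6% without replicate 2 and about 40% without replicate 3. Fewer of all genes were thus also called without replicate 2. Why the count of members varied was not tested.

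The counts of members below 0 and of blocked calls depended on the scaling, which shifts all genes alike. With library size alone in place of TMM the median over all genes moved to 0.08 and that over the members to 0.01, and the number of members with an estimate below 0 was 17 of 39. Without the block, Uqcrq was then the single member called, against 6.40% of all genes lower and 15.3% higher (21.7% called). The median of the members minus that of all genes was -0.07 under both scalings, and the 13 members called lower with the block all kept an estimate below 0. With the replicate block and library size alone, 3 members were lower (Sdhb, Uqcrq and Atp5d) and 3 higher (Uqcrh, Cox7c and Cox8a), against 12.7% and 27.1% of all genes (39.8% called). Sdhb, Uqcrq and Atp5d were thus called lower with the block under both scalings. As a share of all counts the 40 genes held 0.641% to 0.672% in hypoxia and 0.637% to 0.676% in normoxia, ranges that overlap, while their summed level scaled with TMM was 6400 ± 267 CPM in hypoxia and 6821 ± 379 CPM in normoxia (SD, n = 3 each).

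In complex II, Sdha, which carries the flavin that oxidises succinate, had 248, 240 and 246 CPM in hypoxia replicates 1, 2 and 3 and 236, 232 and 247 CPM in normoxia replicates 1, 2 and 3 (log2 fold change 0.04, SE 0.07), and the groups overlapped. Sdhb, the iron-sulphur subunit, had 68.9, 76.5 and 88.4 CPM in hypoxia and 82.5, 89.1 and 101 CPM in normoxia. Replicate 3 was the highest and replicate 1 the lowest in each group, so the groups overlapped although hypoxia was lower in all 3 pairs. Its log2 fold change was -0.22 (SE 0.11, edgeR adjusted p = 0.18), whereas under the block the log2 fold change of -0.23 had an adjusted p of 0.0024 from edgeR. The membrane anchors Sdhc and Sdhd had log2 fold changes of 0.0005 and -0.07 and were not called in either fit.

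Complex III held the member called in both fits. Uqcrq, a small subunit without a redox centre, had 64.9, 60.0 and 66.4 CPM in hypoxia and 84.9, 71.9 and 80.7 CPM in normoxia. Every hypoxia library lay below every normoxia library, and the mRNA fell by 0.31 on the log2 scale (SE 0.08, edgeR adjusted p = 0.023 without the replicate block and 0.00045 with it). The call without the block was lost when hypoxia replicate 1 (edgeR adjusted p = 0.052), hypoxia replicate 2 (0.13) or normoxia replicate 3 (0.060) was left out, and without both replicate 1 libraries (0.0503). In the same order, 14.4%, 12.3%, 16.3% and 20.8% of all tested genes were called in these fits, against 20.9% with all libraries. Cyc1, which encodes the haem protein cytochrome c1 that hands electrons to cytochrome c, had 87.3, 74.6 and 79.1 CPM in hypoxia and 92.7, 89.2 and 95.1 CPM in normoxia, again with no overlap (log2 fold change -0.20, SE 0.08, edgeR adjusted p = 0.096 without the replicate block and 0.0088 with it). Without both replicate 1 libraries Cyc1 was the single member called (log2 fold change -0.26, edgeR adjusted p = 0.033).

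The core proteins of complex III, which face the matrix, were lower in all 3 pairs. Uqcrc1 had 114, 136 and 141 CPM in hypoxia and 138, 147 and 164 CPM in normoxia, and Uqcrc2 had 148, 133 and 150.3 CPM in hypoxia and 174, 147 and 160.5 CPM in normoxia. The groups overlapped for each gene, and the calls were made under the block (adjusted p from edgeR 0.0091 and 0.028) and not without it (0.21 and 0.24). Uqcrfs1, the Rieske iron-sulphur protein, and the small subunits Uqcrb, Uqcr10 and Uqcr11 had log2 fold changes between -0.10 and -0.0089 and were called in neither fit. Uqcrh, the hinge protein, had the highest estimate of all members, with 154.6 ± 7.32 CPM under hypoxia and 144 ± 15.9 CPM under normoxia (SD, n = 3 each, edgeR adjusted p = 0.50).

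Cycs, the gene of cytochrome c, the soluble electron carrier that also takes part in apoptosis, had 73.9, 71.3 and 80.9 CPM in hypoxia and 78.0, 69.9 and 90.01 CPM in normoxia. The groups overlapped, with replicate 3 the highest in each, and the log2 fold change was -0.07 (95% interval -0.29 to 0.14, edgeR adjusted p = 0.65).

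In complex IV no member was called without the block. Cox4i1 encodes the common isoform of a regulatory subunit, for which HIF is known from other cell types to raise a second isoform, Cox4i2, in low oxygen. Cox4i1 had 272, 266 and 281 CPM in hypoxia and 302, 276 and 280.0 CPM in normoxia (log2 fold change -0.07, 95% interval -0.23 to 0.10, edgeR adjusted p = 0.57). Cox4i2 was found with 0, 1 and 0 counts in hypoxia and 1, 0 and 0 counts in normoxia. That was at most 0.0065% of the summed Cox4i1 and Cox4i2 counts of a library. The exact (Clopper-Pearson) 95% upper limit of this share was 0.0362% in the hypoxia library and 0.0351% in the normoxia library with a count, and at most 0.0242% in the 4 libraries with none. Cox4i2 was therefore not detectable at this depth under either oxygen level, and no fold change is given. These limits cover counting error only.

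Cox5b, the zinc-binding subunit, was the complex IV member with the smallest p. It had 105, 111 and 132 CPM in hypoxia and 132, 126 and 135 CPM in normoxia, so that hypoxia replicate 3 reached the normoxia libraries (log2 fold change -0.18, SE 0.09, edgeR adjusted p = 0.22 without the replicate block and 0.030 with it). The remaining 9 tested members, Cox5a, Cox6a1, Cox6b1, Cox6c, Cox7a2, Cox7a2l, Cox7b, Cox7c and Cox8a, had log2 fold changes between -0.06 and 0.07 and were called in neither fit. Cox7a2l, whose product helps complexes III and IV join into supercomplexes, was among these with 159 ± 9.87 CPM in hypoxia and 166 ± 22.9 CPM in normoxia (SD, n = 3 each). Cox6c had the widest interval of the complex, -0.37 to 0.29, since its hypoxia libraries ran from 109 CPM in replicate 1 to 173 CPM in replicate 3.

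ATP synthase held 7 of the 13 members called lower with the replicate block, of 14 tested, and 0 without it. Of all genes, 20.0% were lower with the block and 9.72% without it. With the block and library size alone, 1 of these 14, Atp5d, was lower, against 12.7% of all genes. In the catalytic head, Atp5a1 (alpha) had 668, 609 and 672 CPM in hypoxia and 769, 661 and 721 CPM in normoxia. Atp5b (beta), the most abundant member, had 924, 881 and 980.1 CPM in hypoxia and 1089.8, 959.9 and 1063 CPM in normoxia. Both genes were lower in every pair while their groups overlapped, with log2 fold changes of -0.14 and -0.16 (edgeR adjusted p = 0.28 and 0.21 without the replicate block, 0.044 and 0.030 with it). For the rotor subunits of the central stalk, Atp5d (delta) had 204, 176 and 174 CPM in hypoxia and 239, 199.7 and 205 CPM in normoxia, and Atp5e (epsilon) had 59.1, 71.4 and 76.7 CPM in hypoxia and 72.1, 81.5 and 84.6 CPM in normoxia. Replicate 1 was the highest library for Atp5d and the lowest for Atp5e in each group. Their blocked log2 fold changes were -0.22 and -0.21 (edgeR adjusted p = 0.0042 and 0.0060). Atp5o, the gene of the protein that confers oligomycin sensitivity on the stator, had 143, 133 and 146 CPM in hypoxia and 162, 150.1 and 163 CPM in normoxia, with no overlap (log2 fold change -0.17, SE 0.07, edgeR adjusted p = 0.13 without the replicate block and 0.012 with it). Atp5c1, Atp5h, Atp5j, Atp5j2, Atp5k and Atp5l had log2 fold changes between -0.13 and 0.03 and were called in neither fit.

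The c subunit, which forms the membrane ring of ATP synthase, is made from 3 nuclear genes whose mature protein is the same. Atp5g1 had 91.3, 82.3 and 87.6 CPM in hypoxia and 103, 89.2 and 98.2 CPM in normoxia, Atp5g2 had 9.29, 6.15 and 6.19 CPM in hypoxia and 11.6, 8.73 and 6.11 CPM in normoxia, and Atp5g3 had 264, 250.1 and 278 CPM in hypoxia and 288, 278.1 and 316 CPM in normoxia. Only for Atp5g3 did the groups not overlap, by less than 1 CPM. Atp5g1 and Atp5g3 had log2 fold changes of -0.15 and -0.16 (edgeR adjusted p = 0.20 and 0.21) and were called with the replicate block (0.020 and 0.025), whereas Atp5g2, at -0.29 (SE 0.23), was called in neither (0.43, and 0.056 with the block). The shares of the 3 genes in their summed counts were alike in both groups. Atp5g3 made up 73.7% ± 1.22 in hypoxia and 73.5% ± 1.89 in normoxia, Atp5g1 24.3% ± 0.762 and 24.2% ± 1.23, and Atp5g2 2.01% ± 0.473 and 2.22% ± 0.718 (SD, n = 3 each). These shares follow counts, not molecules, since the transcripts differ in length.

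For members named above as called lower with the block, and for a member that was not, 250 bases before the gene start were taken from RefSeq (GRCm38.p6) to show what the promoters hold. Motifs of regulators known to bind promoters of respiratory genes were searched on both strands, a motif of 10 bases with 1 free position for NRF1, CCGGAAG for GABPA and AANATGGCG for YY1, and ACGTG for the core of the HIF site, which matches on both strands in the palindrome CACGTG. Apart from free positions, letters were matched exactly, so other forms of a site, the HIF core included, were not counted. Sdhb is shown as the member with a promoter in the table that had the smallest blocked p, Atp5g3 as the main source of c subunit mRNA and Cox6a1, which encodes a small oxidase subunit, as a member with nearly the same level in both groups. Each reads 5′ to 3′, with capitals for motif matches.
Sdhb, chr4:140961021-140961270, plus strand: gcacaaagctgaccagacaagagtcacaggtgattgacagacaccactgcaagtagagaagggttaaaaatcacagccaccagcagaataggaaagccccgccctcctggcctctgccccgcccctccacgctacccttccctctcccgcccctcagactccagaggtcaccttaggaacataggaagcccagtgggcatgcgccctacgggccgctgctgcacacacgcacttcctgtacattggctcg
Atp5g3, chr2:73911327-73911576, minus strand: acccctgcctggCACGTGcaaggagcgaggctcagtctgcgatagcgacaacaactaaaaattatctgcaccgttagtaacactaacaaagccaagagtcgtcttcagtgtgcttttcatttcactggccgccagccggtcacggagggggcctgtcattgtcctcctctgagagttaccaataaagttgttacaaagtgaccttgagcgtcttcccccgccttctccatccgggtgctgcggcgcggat
Cox6a1, chr5:115348959-115349208, minus strand: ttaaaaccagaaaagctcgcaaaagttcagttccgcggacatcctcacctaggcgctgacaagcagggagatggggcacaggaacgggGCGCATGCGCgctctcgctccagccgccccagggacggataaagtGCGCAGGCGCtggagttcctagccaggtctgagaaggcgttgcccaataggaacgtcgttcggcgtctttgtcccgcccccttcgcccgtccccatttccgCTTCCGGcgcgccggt
None of the 4 motifs matched exactly in the Sdhb window, which does not exclude sites with other letters there. Atp5g3 held a palindromic CACGTG 238 bases before the start, and Cox6a1 held NRF1 matches starting 162 and 117 bases and a GABPA match starting 16 bases before the start. Of 31 members with a promoter in the table, 7 (22.6%) held the NRF1 motif, 9 (29.0%) the GABPA motif, 1 (3.23%) the YY1 motif and 9 (29.0%) the HIF core, against 4.23%, 7.83%, 1.29% and 18.5% of 27025 genes. Among members called lower with the block and among the others, the NRF1 motif was found in 0 of 9 and 7 of 22, the GABPA motif in 1 of 9 and 8 of 22, the YY1 motif in 0 of 9 and 1 of 22, and the HIF core in 3 of 9 and 6 of 22. A match is a run of letters and not a bound site, and these shares were not tested.

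Between the replicates, the members varied more than between the oxygen levels. When the sum of squares of log2 CPM was split, the replicate number (2 degrees of freedom) held a median of 58.5% over the members and oxygen (1 degree of freedom) 14.0%, against 35.8% and 38.4% over all tested genes. The share of the replicate number exceeded that of oxygen in 31 of 39 members (79.5%), against 49.9% of all tested genes. Taken as deviations from the group means, libraries with the same number correlated over the 39 members at 0.90, 0.50 and 0.79 for replicates 1, 2 and 3, and over all genes at 0.47, 0.33 and 0.30. Unlike numbers also went together among replicates 2 and 3, since over the members hypoxia replicate 2 correlated with normoxia replicate 3 at 0.57, above its value with normoxia replicate 2, and hypoxia replicate 3 with normoxia replicate 2 at 0.40. These are correlations across genes, which share a library and are not independent replicates.

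The replicate 1 libraries split the members into opposed sets. In 20 members replicate 1 lay above the mean of replicates 2 and 3 in both groups, in 11 it lay below in both, and in 8 the groups went opposite ways. The same count was not made over all genes, where the replicate 1 libraries also deviated together (correlation 0.47). Cox8a, a small subunit of cytochrome c oxidase, had 211, 173 and 166 CPM in hypoxia and 216, 159.5 and 149.99 CPM in normoxia, so that replicate 1 was the highest under either oxygen level. Uqcr11, a small complex III subunit, showed the opposite order with 39.3, 46.0 and 50.9 CPM in hypoxia and 39.9, 45.2 and 51.8 CPM in normoxia. For Uqcr11 the replicate number held 99.4% of the sum of squares and oxygen 0.080%. Uqcrq was at the other end, with 77.4% for oxygen and 20.2% for the replicate number. What the replicate numbers stand for beyond the number is not given in the labels.

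**Figure D2:**
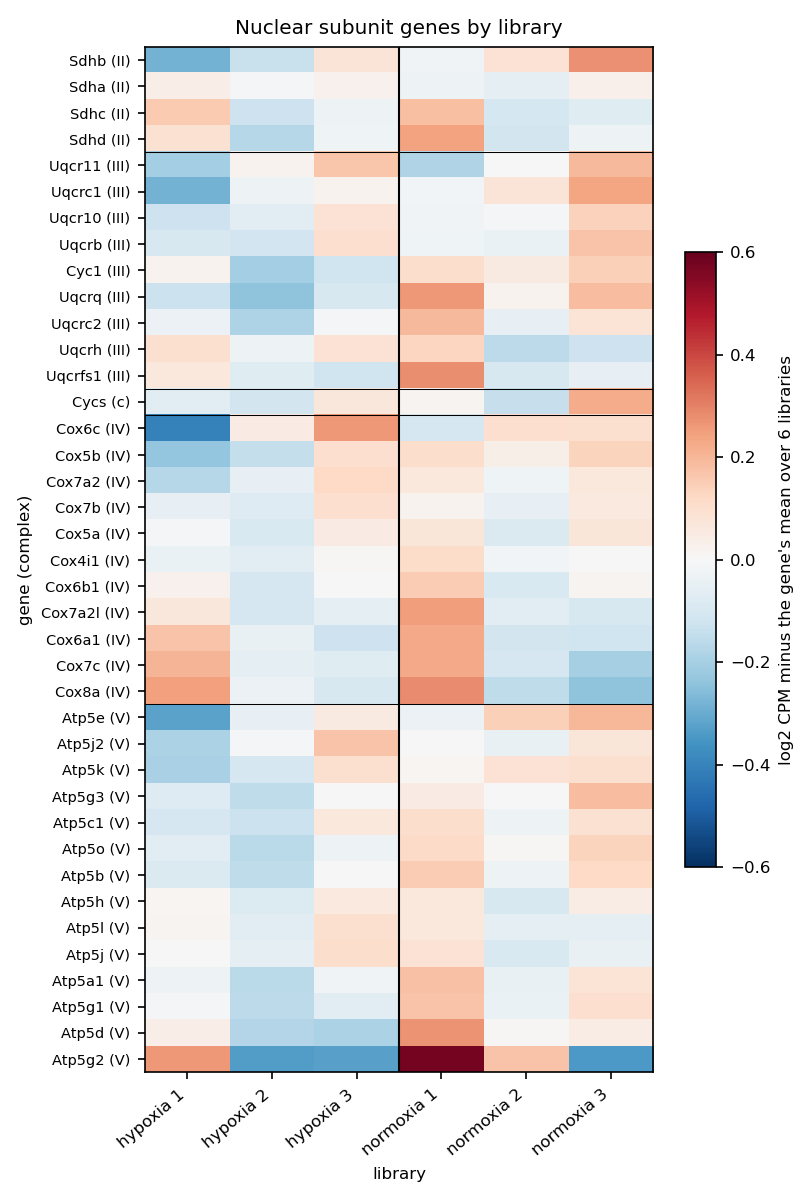
Log2 CPM of each tested nuclear subunit gene minus its mean over the 6 libraries, with hypoxia libraries on the left and normoxia libraries on the right, and genes grouped by complex and ordered by how far replicate 1 lies from replicates 2 and 3. Replicate 1 columns of both groups show the same genes low (Uqcr11, Cox6c) and high (Cox8a, Atp5g2).

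Per length of transcript, the complexes differed in level more than the oxygen levels did. The median over the tested members was 74.6 CPM per kb in hypoxia and 80.9 in normoxia for complex II, 102.0 and 103 for complex III, 231 and 231 for complex IV, and 197 and 205 for complex V. Atp5b was the highest member at 485 CPM per kb in hypoxia and 542 in normoxia, and Atp5g2 the lowest tested at 12.3 and 15.02. Within complex III, Uqcrh stood at 326 and 304 CPM per kb and Cyc1 at 52.9 and 60.7. Lengths were medians over annotated coding transcripts, so a gene with a long alternative transcript, such as Atp5g1 or Cycs, is given a low level, and several of the small subunits are known to have processed pseudogenes with which estimated counts may be shared.

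**Figure D3:**
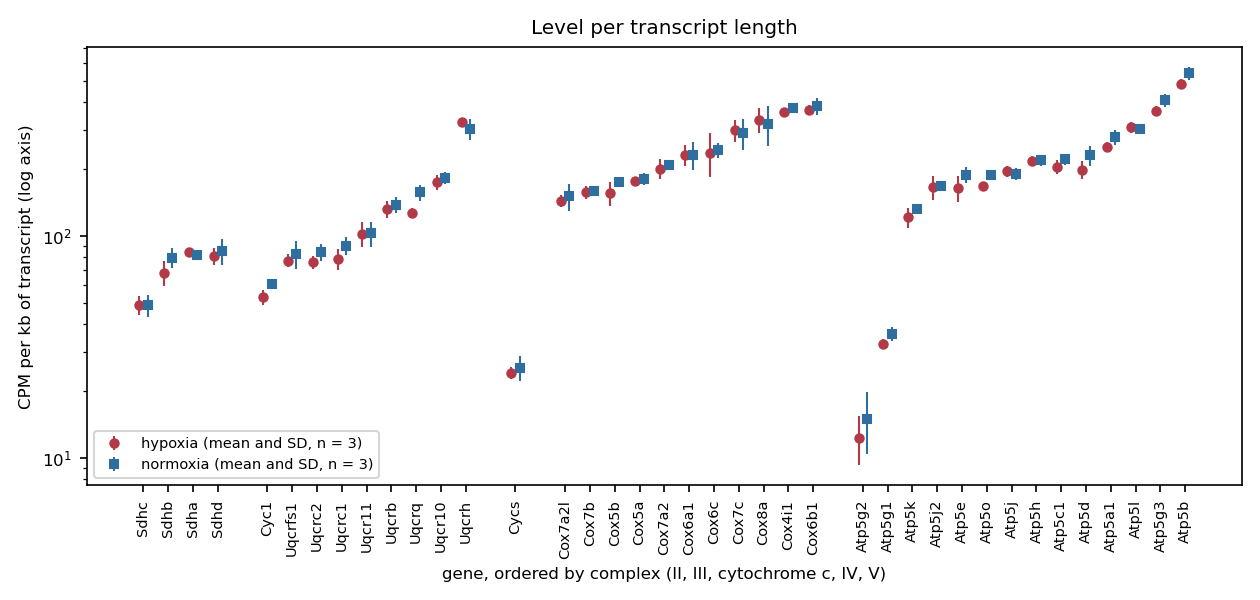
Level of the 39 tested members in CPM per kb of transcript (log axis) for hypoxia (circles, left of each pair) and normoxia (squares, right), as mean and SD over 3 libraries, ordered by complex and level. Complex IV genes lie between 144 and 371 in hypoxia and between 151 and 385 in normoxia, and complex II genes between 48.6 and 84.3 in hypoxia and between 48.6 and 85.3 in normoxia.

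The mitochondrially encoded subunits of the same complexes were lower in hypoxia by larger amounts. All 6 fell without the block, and the hypoxia libraries lay wholly below the normoxia libraries for each, where 9.72% of all genes were called lower and 18.7% lay wholly below. mt-Cytb, the cytochrome b of complex III, had 988, 773 and 812 CPM in hypoxia and 2916, 2158 and 1808 CPM in normoxia (log2 fold change -1.42, SE 0.17, edgeR adjusted p = 0.00038). In complex IV, mt-Co1, mt-Co2 and mt-Co3, the catalytic core, had log2 fold changes of -0.70, -0.37 and -0.92 (edgeR adjusted p = 0.0078, 0.021 and 7.9e-05). In complex V, mt-Atp6 and mt-Atp8 of the membrane part had log2 fold changes of -0.72 and -0.96 (edgeR adjusted p = 0.028 and 0.0052). Nuclear copies of mitochondrial sequence can share these counts.

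The ratio of mitochondrially encoded to nuclear subunit counts within a complex does not depend on the scaling of the libraries. Nuclear counts here were those of the listed members, so other nuclear subunits, such as Atp5f1 of complex V and Ndufa4 of complex IV, were left out. For complex III it was 1.14, 0.920 and 0.896 in hypoxia and 3.01, 2.45 and 1.88 in normoxia. For complex IV it was 5.46, 4.99 and 4.65 in hypoxia and 8.91, 8.25 and 6.97 in normoxia. For complex V it was 0.354, 0.310 and 0.306 in hypoxia and 0.648, 0.472 and 0.358 in normoxia. The groups did not overlap for any of the 3 complexes, though for complex V hypoxia replicate 1 was close to normoxia replicate 3. Replicate 1 had the highest ratio of its group in each complex.

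**Figure D4:**
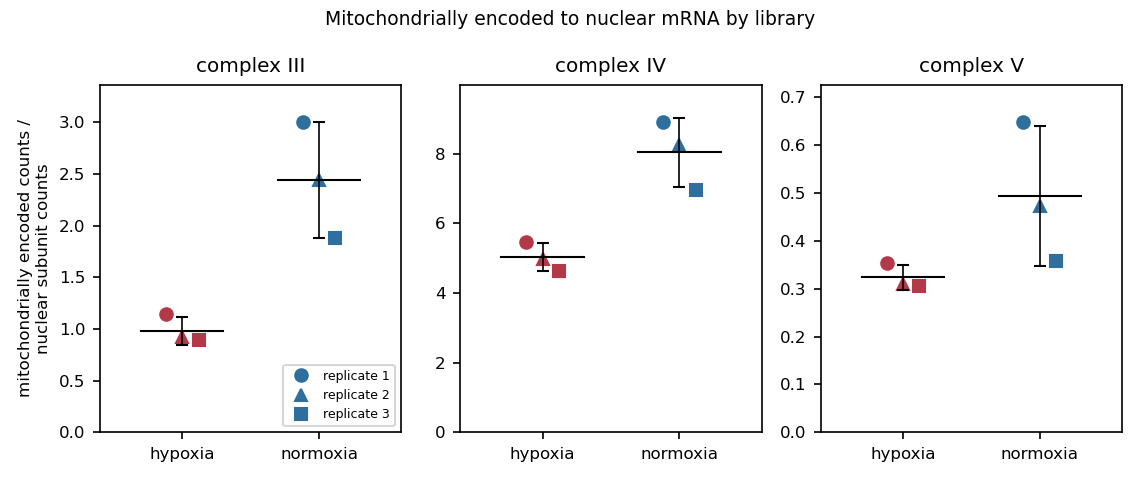
Mitochondrially encoded counts over counts of the listed nuclear members of complexes III, IV and V in each library (symbols by replicate number), with the mean and SD over 3 libraries as black lines. Hypoxia libraries lie below normoxia libraries in each panel, with means of 0.986 and 2.45 for complex III, 5.03 and 8.04 for complex IV, and 0.323 and 0.493 for complex V.

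Other nuclear subunits and tissue isoforms were also examined. Of 14 listed genes, 9 were tested and 0 were called in either direction by edgeR without the block (1 higher and 1 lower at an unadjusted p under 0.05, and 1 higher and 2 lower with the replicate block). Of all genes, 20.9% were called without the block, and 19.2% were higher and 20.0% lower with it. At an unadjusted p under 0.05, 2696 of all 15591 tested genes were higher and 2548 lower. Cox7a1, the isoform typical of heart and muscle and chosen after its values were seen, had 3.07, 3.00 and 3.75 CPM in hypoxia and 2.86, 2.14 and 2.05 CPM in normoxia, without overlap (log2 fold change 0.48, edgeR adjusted p = 0.086 without the replicate block and 0.032 with it). It made up 2.41% ± 0.142 of the summed Cox7a1 and Cox7a2 counts in hypoxia and 1.67% ± 0.287 in normoxia (SD, n = 3 each). Ndufa4l2, known as a HIF target in other cells, had at most 0.087 CPM in hypoxia and 0.038 CPM in normoxia, and Cox7b2, Cox8b, Cox8c and Cyct had 0 counts in all 6 libraries.

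Of 39 assembly factors listed, 38 were tested, and 1 was called lower and 0 higher, against 9.72% and 11.2% of all genes. With the replicate block 7 were lower and 0 higher, against 20.0% and 19.2% of all genes. With library size alone in that fit 2 were lower and 5 higher, against 12.7% and 27.1% of all genes. Lyrm7, the gene of a chaperone that inserts the Rieske protein into complex III, had 2.66, 2.60 and 3.11 CPM in hypoxia and 3.79, 4.18 and 4.83 CPM in normoxia, without overlap. It fell by 0.61 on the log2 scale (SE 0.15, edgeR adjusted p = 0.017). The Rieske protein gene itself, Uqcrfs1, averaged 105 ± 7.13 CPM in hypoxia and 113 ± 16.5 CPM in normoxia (SD, n = 3 each, edgeR adjusted p = 0.58).

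Of 14 regulators, 4 were called lower and 0 higher, against 9.72% and 11.2% of all genes. With the replicate block 5 were lower and 1 higher, against 20.0% and 19.2% of all genes. The higher one was Mxi1, which encodes an antagonist of Myc (blocked log2 fold change 0.37, edgeR adjusted p = 0.0042). Hif1a, the gene of the oxygen-regulated HIF subunit, was the largest decrease (log2 fold change -1.17, SE 0.07, edgeR adjusted p = 1.4e-05). Lonp1, a matrix protease known from other cells to degrade the Cox4i1 protein in low oxygen, had 155, 157 and 164 CPM in hypoxia and 202, 217 and 222 CPM in normoxia and fell by 0.43 on the log2 scale (SE 0.07, edgeR adjusted p = 0.0030). Gabpb1, a subunit of the factor whose DNA-binding partner is Gabpa, had 43.2, 43.1 and 43.0 CPM in hypoxia and 58.0, 53.7 and 53.6 CPM in normoxia (log2 fold change -0.35, edgeR adjusted p = 0.0052). Rbpj, the DNA-binding factor of the Notch pathway, fell by 0.37 on the log2 scale (edgeR adjusted p = 0.0095). Nrf1, chosen after its values were seen, averaged 42.6 ± 3.93 CPM in hypoxia and 49.9 ± 1.51 CPM in normoxia (SD, n = 3 each, log2 fold change -0.23, edgeR adjusted p = 0.078 without the replicate block and 0.0048 with it), and Ppargc1a, a coactivator of mitochondrial genes, did not exceed 0.894 CPM under hypoxia and 1.02 CPM under normoxia.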

How the data were processed

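RNA of NK cells was sequenced in 6 libraries, 3 per oxygen level, from strand-specific mRNA libraries per the labels' protocols. The authors deposited an estimated count per Ensembl gene with no normalization, and 69.4% of these values were whole within 1e-06. Trim Galore 0.6.4, kallisto 0.4.6, edgeR 3.17 and the build GRCm39 appear in the submitters' processing notes without order or settings, and for the annotation nothing is stated there. The second deposited value, on the log2 scale, equalled log2 CPM recomputed by edgeR (prior count 2) (largest difference 0) and was used for nothing else.

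Symbols and transcript lengths came from GENCODE M21, which pairs 52029 of 56953 IDs with a symbol and belongs to an earlier build. Under the older ATP synthase names, 40 of 40 members matched, and of 2 IDs named Atp5o the one with nearly all counts was used. Counts were rounded, filtered with filterByExpr (minimum count 10, minimum total 15, 15591 genes kept), scaled with TMM and tested over the whole table in edgeR 4.0.16 (quasi-likelihood F-test), with Benjamini-Hochberg adjustment at 0.05. DESeq2 1.42.0 and limma 3.58.1 served as alternatives. Standard errors were obtained from each log2 fold change and its F statistic.

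Taken as deviations from group means, libraries sharing a number correlated at 0.47, 0.33 and 0.30 for replicates 1, 2 and 3, so by a criterion of 0.1 on these the numbers, taken from the labels, were treated as pairing the samples. Of the pairs with unlike numbers, hypoxia replicate 2 with normoxia replicate 3 also exceeded it, at 0.12. The common biological coefficient of variation came to 10.9% without and 5.64% with the block. As a check for a library deposited more than once, the chi-square averaged over genes between libraries of a group was 12.4 to 59.2. Values in every library were given for members called with or without the block, the member of smallest p in each complex, and Cycs, Cox4i1, Cox4i2 and the Atp5g genes. Sdha, Cox8a and Uqcr11 were chosen after their values were seen, and Uqcrh, Cox6c and Uqcrfs1 likewise. The members, lists, rule and alternatives were chosen with earlier results of these data known.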

Additional observations from a re-analysis of the deposited data

How the results depend on the processing

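The call of 1 member lower and 0 higher was the same with the size factors of DESeq2, library size alone, the mitochondrially encoded genes left out, no filter, the stricter filter, the DESeq2 Wald test and limma-voom, and in each of these settings the member was Uqcrq. Of all tested genes, 11.3% (no filter) to 23.2% (stricter filter) were called in these settings. With single libraries left out, 0 to 1 members were lower and 0 higher, where 12.3% (without hypoxia replicate 2) to 22.4% (without normoxia replicate 1) of all tested genes were called. With the replicate block 13 members were lower, and with the replicate block and library size alone 3 were lower and 3 higher. In fits added after seeing the data, the replicate block without replicate 1 gave 9 lower and 2 higher (Uqcrh and Cox8a), without replicate 2 it gave 2 lower (Uqcrc1 and Uqcrq), and without replicate 3 it gave 15 lower. Calls among all genes in either direction were 40.1% without replicate 1, 22.6% without replicate 2 and about 40% without replicate 3. The cause of these shifts was not tested. The log2 fold change of Cycs, -0.07, was 0.0078 with library size alone, 0.014 with the replicate block and library size alone, and 0.024 without normoxia replicate 3, with a range over left-out single libraries of -0.16 to 0.024. That of Cox4i1, -0.07, was 0.016 with library size alone, also with the replicate block. Over the 16 tested members given by rule and all alternatives, 259 values kept direction and side of the threshold, 36 passed it newly, 4 no longer passed and 5, those above, changed sign. Depth limited Cox4i2, with at most 1 count in a library.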
